A study of Mus musculus with 6 samples.

Results

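Superoxide dismutases and catalase form the first enzymatic line against reactive oxygen in mammalian tissue, and 5 genes of this defense were followed here in mouse ovary. They are Sod1, Sod2 and Sod3, which encode the cytosolic copper-zinc, the mitochondrial manganese and the extracellular copper-zinc superoxide dismutase, Ccs, which encodes the copper chaperone of the first, and Cat, which encodes catalase. They were taken by symbol from the deposited gene table of 19423 genes, each symbol occurs there once, and all 5 passed the filter on low counts.

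A superoxide dismutase converts superoxide to hydrogen peroxide and oxygen, and catalase, which lies mainly in peroxisomes, then splits hydrogen peroxide to water and oxygen. Glutathione peroxidases and peroxiredoxins remove peroxide in parallel. In the ovary this defense is known from the steroid-producing cells of the follicle and corpus luteum, and catalase is also abundant in fat and liver.

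The libraries came from ovaries of female balb/c-nude mice, an athymic strain that accepts human tumor cells, with the label Day80 on all 6. The 3 control libraries carry the genotype label Control and no injection is named for them. The 3 tumor libraries came from mice that had received MBA-MD-231 cells under the skin. The treatment label ends in a different number for each of the 3 tumor samples, but the cell line label is identical in all of them, and they are taken as a single line. Nothing in the labels says which animals or litters the ovaries came from, what stage of the cycle they were in or whether tissue around the ovary was trimmed, and p-values measure only the spread between these samples. The series title links oxidative stress from tumors to follicle loss, and the comparison asks how these genes stand in ovaries of tumor-bearing mice.

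The libraries held between 18278614 and 19238900 estimated counts. The 8 granulosa cell markers summed to at least 2641.6 CPM (counts scaled to library size) and the 8 oocyte markers to at least 326.2 CPM in every library. Tumor replicate 1 was the least like its group: its counts differed from those of tumor replicates 2 and 3 with a chi-square per degree of freedom of 96.2 and 76.2, against 21.99 between those 2. Its summed level of 11 adipocyte markers was 14483 CPM, against 6209 in tumor replicate 3, 1528 in tumor replicate 2 and 1148 to 1460 in the controls. Oviduct markers also varied within both groups, from 481.2 to 2145.1 CPM in control and from 66.0 to 1946.2 CPM in tumor.

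Ccs carries a domain related to Sod1, and Sod3 is a related copper-zinc enzyme, so reads of these genes could in principle be mixed up. The closest stretches of Sod1 and Ccs over 50 bases, the read length, are shown to make that visible, in the coding strand of the GENCODE M21 transcripts (GRCm38), with capitals at each base that differs between them. The pair lies at coding bases 124 to 173 of Sod1 and 373 to 422 of Ccs, counted from the A of the start codon, and differs at 13 bases. The Ccs stretch lies within 1 coding exon on the minus strand at chr19:4833347-4833396.
Sod1: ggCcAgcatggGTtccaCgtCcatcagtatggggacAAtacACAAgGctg
Ccs: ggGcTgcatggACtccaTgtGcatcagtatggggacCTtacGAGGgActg
No 50-base window was shared between the main GENCODE transcripts of any of the 5 genes. Of 592 windows of the main Sod1 transcript, 137 also occur in the processed pseudogene Gm8566, which is not a row of the gene table, and of 5812 windows of Sod2, 83 occur in transcripts of other genes, none of them within the coding part. Windows of Sod3, Cat and Ccs were found in no other gene. The GENCODE transcripts need not equal the sequences that were counted. Those of Sod3 and Sod2 hold 3738 and 5861 bases, against effective lengths of 1996 and 3775 behind the deposited FPKM. Some shared windows of Sod2 may thus lie outside the counted sequence. Each gene is represented by a single transcript in the deposited transcript table, which held 100% of its counts in every library; the counts of Sod2 were not whole numbers in any library, and those of the other 4 genes were whole.

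Sod1 (chromosome 16, 90220754 to 90226333, plus strand, GRCm38.p6) was the most abundant of the 5 per length. In TPM, a level scaled to transcript length, it measured 1659, 1348 and 1692 in control replicates 1, 2 and 3 and 1485, 1320 and 1482 in tumor replicates 1, 2 and 3. In control ovaries Sod3 followed at 240.0 ± 26.2 TPM (SD, n = 3), then Ccs at 115.8 ± 17.2 TPM and Cat at 112.8 ± 4.39 TPM, with Sod2 lowest at 49.7 ± 4.42 TPM. Ccs and Cat overlapped in control, and every other neighbouring pair in that order was separated. In tumor ovaries Sod1 stayed highest and Sod2 lowest, while Cat, Sod3 and Ccs shared the middle: Cat ranged from 102.5 to 425.8 TPM, Sod3 from 112.35 to 138.7 TPM and Ccs from 75.05 to 103.3 TPM. Sod3 was thus clearly second in control ovaries. In tumor ovaries all its values lay above those of Ccs, and it lay below Cat in replicates 1 and 3 and above Cat in replicate 2.

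**Figure D1:**
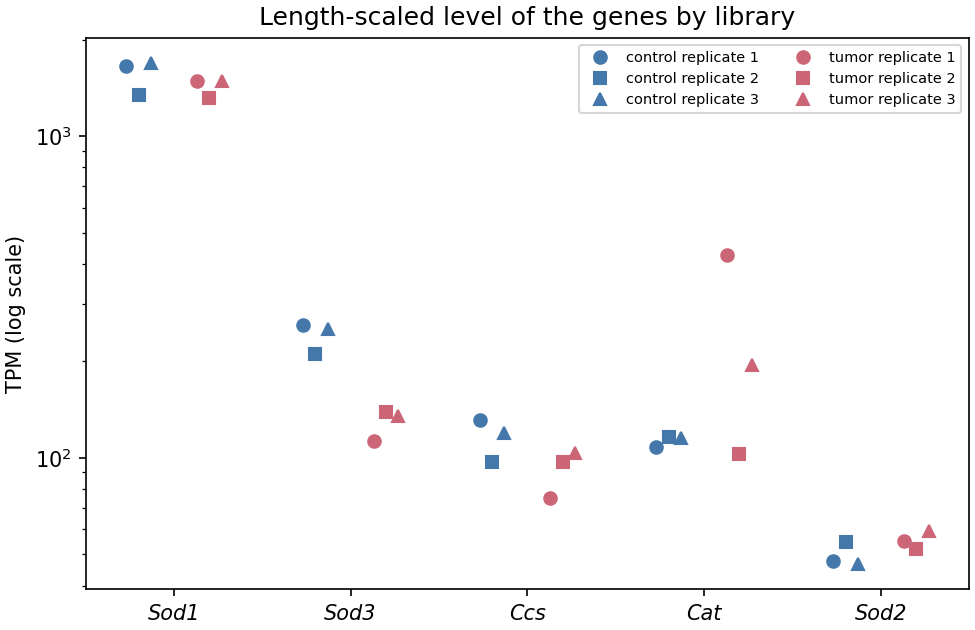
TPM, a level per transcript length, of the 5 genes in each library on a log axis, with controls in blue, tumor in red and a symbol for each replicate. Sod1 lies above 1300 TPM in all 6 libraries, Sod2 below 60, and Cat of tumor replicates 1 and 3 lies above all Sod3 values of tumor.

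At an adjusted p of 0.05, 1 of the 5 genes fell, 0 rose and the other 4 missed the threshold. Over all 15787 genes tested, 7.71% passed in either direction with 3.91% lower and 3.8% higher in tumor, so the share among 5 genes rests on a single gene. At an unadjusted p under 0.05 stood 2 of the 5, Sod3 and Ccs, against 31% of all genes tested. The groups did not overlap in 1 of the 5 genes, against 38.1% of all genes tested. Calls over all genes rested on single libraries: 0 genes passed without control replicate 1, 5 without control replicate 3, 3 without tumor replicate 2 and 0 without tumor replicate 3, and 2274 and 2605 without control replicate 2 and tumor replicate 1. Sod3 and the 11 genes of related pathways given below with values as fallen or risen each missed the threshold without any 1 of the first 4 of these libraries. The 5 changes were unalike in size and sign, which the plot of levels by library shows.

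**Figure D2:**
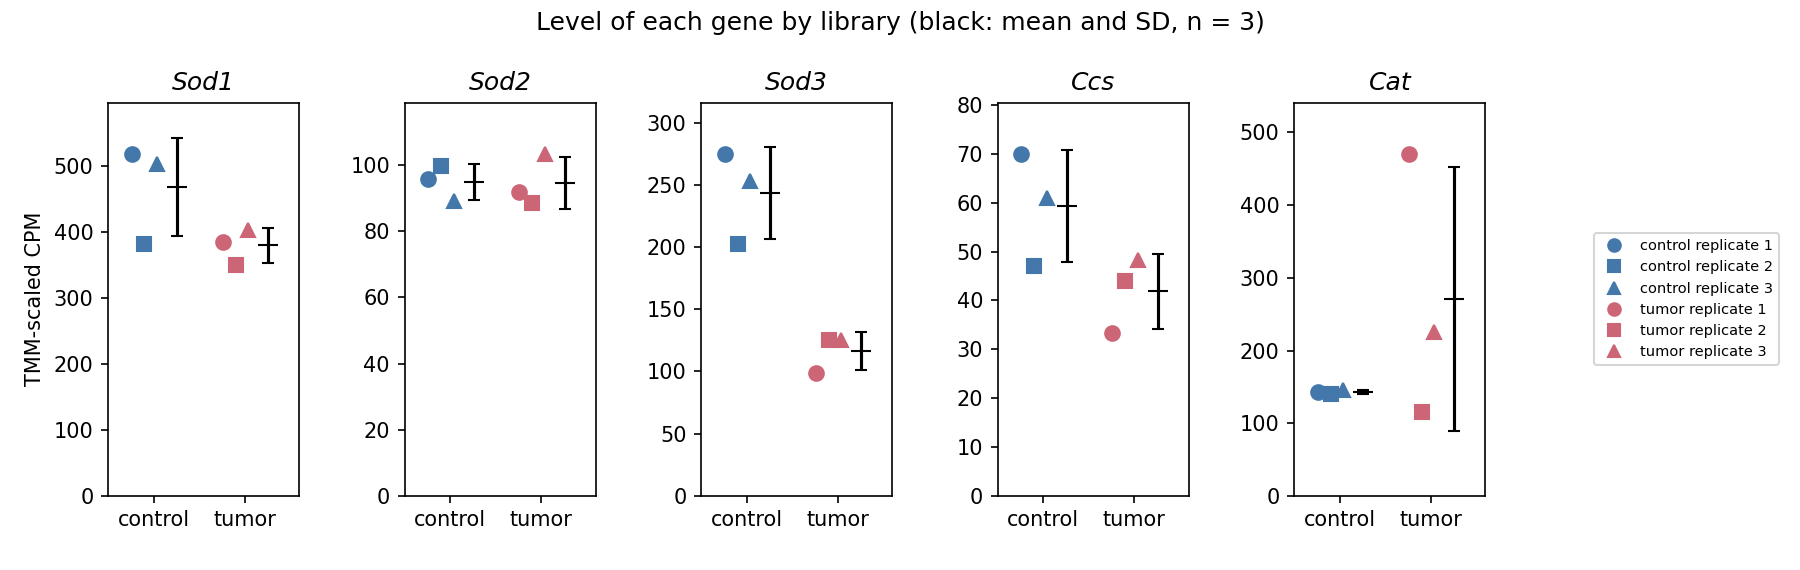
TMM-scaled CPM of each gene in the 3 control (blue) and 3 tumor (red) libraries, with a symbol for each replicate and the mean and SD in black. Sod3 is the gene whose groups are separated, and Cat is tight in control and spread from 115.8 to 470.5 CPM in tumor.

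Sod3 (chromosome 5, 52363804 to 52369738, plus strand) fell. Its secreted enzyme binds heparan sulfate and collagen in the extracellular matrix and on vessel walls. It measured 274.8, 202.4 and 252.9 CPM, scaled by TMM factors, in control replicates 1, 2 and 3 and 99.04, 125.0 and 125.1 CPM in tumor replicates 1, 2 and 3. The lowest control library thus lay above the highest tumor library by more than the SD of either group, which was 37.2 CPM in control and 14.996 CPM in tumor. The log2 fold change of tumor against control was -1.06 ± 0.15 (SE) with a 95% interval of -1.43 to -0.70, a level 2.09-fold lower in tumor, and the adjusted p by edgeR's quasi-likelihood test was 0.0331. The authors' deposited table, from DESeq2, gives Sod3 a log2 fold change of -1.05 with a q of 4.92e-08.

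The size of the Sod3 difference moved little with single libraries, but the call did not hold without some of them. With each library left out in turn the log2 fold change lay between -1.14 and -0.95, and the adjusted p was 0.142 without control replicate 1, 0.110 without control replicate 3, 0.0768 without tumor replicate 2 and 0.120 without tumor replicate 3. With the mean of the adipocyte markers as a covariate it was -0.85 ± 0.22 (SE) with an adjusted p of 0.263, in a fit where no gene passed.

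Summed levels of smooth muscle, fibroblast and luteal markers were lower in the same libraries in which Sod3 was lower. The sums of endothelial, granulosa and theca markers overlapped between the groups. For the counts below, 3.91% of all genes tested fell and 3.8% rose. Smooth muscle and pericyte markers, of which 3 of 8 fell and none rose, summed to 2675 to 3007 CPM in control and 1424 to 2247 CPM in tumor. Fibroblast markers, of which 3 of 6 fell, summed to 4528 to 6195 CPM in control and 2882 to 3582 CPM in tumor. Luteal markers, of which 3 of 8 fell, summed to 14714 to 15704 CPM in control and 2583 to 8340 CPM in tumor. The largest parts of that sum were Cyp11a1, with means of 7212 CPM in control and 1887 in tumor, and Hsd3b1, with 5899 and 3764. Neither passed edgeR's test (adjusted p 0.112 and 0.250), and the 3 that fell were Akr1c18, Ptgfr and Sfrp4. Endothelial markers, of which 0 of 7 passed, summed to 465.2 to 495.6 CPM in control and 406.0 to 467.2 CPM in tumor. Taken singly, each of the 7 was separated between the groups, 5 lower and 2 higher in tumor, against 38.1% of all genes tested. So were 7 of 8 smooth muscle, 5 of 6 fibroblast, 7 of 8 luteal and 7 of 8 oocyte markers. Among theca and granulosa markers 2 of 5 and 0 of 8 were separated. Granulosa markers, of which 0 of 8 passed, summed to 3501 to 4380 CPM in control and 2642 to 4722 CPM in tumor. Theca markers, of which 2 of 5 rose and none fell, summed to 175.9 to 2848 CPM in control and 248.9 to 2643 CPM in tumor. The risers, Hhip and Ptch1, did not overlap between the groups. Oocyte markers, of which 5 of 8 rose, summed to 326.2 to 432.8 CPM in control and 501.0 to 646.1 CPM in tumor. No marker in these 7 lists was at 0 throughout. In whole ovary, fewer cells of a type and less RNA per cell cannot be told apart, and the part of these cells in the Sod3 difference was not tested.

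Of 7 genes for enzymes and surfaces that process or bind extracellular superoxide dismutase, 1 fell and 6 did not pass, with a median log2 fold change of -0.03, where the median of all tested genes was -0.02 and 3.91% of them fell. Sdc1, a cell-surface heparan sulfate proteoglycan, fell (158.1 ± 8.11 CPM in control, 90.5 ± 12.8 CPM in tumor, SD, n = 3 each; edgeR adjusted p 0.0343). Furin, a protease known to cleave the matrix-binding tail of the enzyme, measured 130.9 ± 8.06 CPM in control against 111.6 ± 6.46 CPM in tumor, and Fbln5, a matrix protein that binds it, measured 24.01 ± 5.75 and 31.4 ± 5.96 CPM. Neither passed, with edgeR adjusted p of 0.140 and 0.273. Lrp1, an endocytic receptor, had a log2 fold change of 0.30, which was -0.15 after a correction for gene length.

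Cat (chromosome 2, 103453904 to 103485153, minus strand) differed among the tumor libraries far more than between the groups. It measured 143.3, 139.7 and 145.2 CPM in control replicates 1, 2 and 3 and 470.5, 115.8 and 225.6 CPM in tumor replicates 1, 2 and 3. Tumor replicate 2 lay below every control library, and tumor replicates 1 and 3 lay above them at 3.30 and 1.58 times the control mean. The coefficient of variation was 1.96% in control, where counting alone gives 1.94%, and 67.1% in tumor. For 11927 genes with an average log2 CPM of at least 3, the median was 9.75% in control and 11.1% in tumor. The log2 fold change was 0.92 ± 0.48 (SE), with a 95% interval of -0.26 to 2.11 and an edgeR adjusted p of 0.252, and the authors' deposited table gives 0.93 with a q of 0.108.

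The fat markers were ordered like Cat among the tumor libraries. Adipoq, which encodes the adipocyte hormone adiponectin, measured 529.3, 54.8 and 227.9 CPM in tumor replicates 1, 2 and 3, and 36.4, 48.2 and 38.7 CPM in control replicates 1, 2 and 3. Plin1, which encodes the coat protein perilipin of the fat droplet, measured 194.5, 74.9 and 159.5 CPM in the tumor replicates and 61.0, 74.1 and 69.5 CPM in the controls. Tumor replicate 1 was highest and tumor replicate 2 lowest of the 3 for Cat, Adipoq and Plin1 alike. Against the control mean, tumor replicate 1 stood at 12.9-fold for Adipoq and 2.85-fold for Plin1, and tumor replicate 3 at 5.55-fold and 2.34-fold. Tumor replicate 2 stood at 1.33-fold for Adipoq and 1.1-fold for Plin1, where Cat stood at 0.811. Among the controls the markers and Cat were not ordered alike: control replicate 2 was highest for both markers and lowest for Cat.

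**Figure D3:**
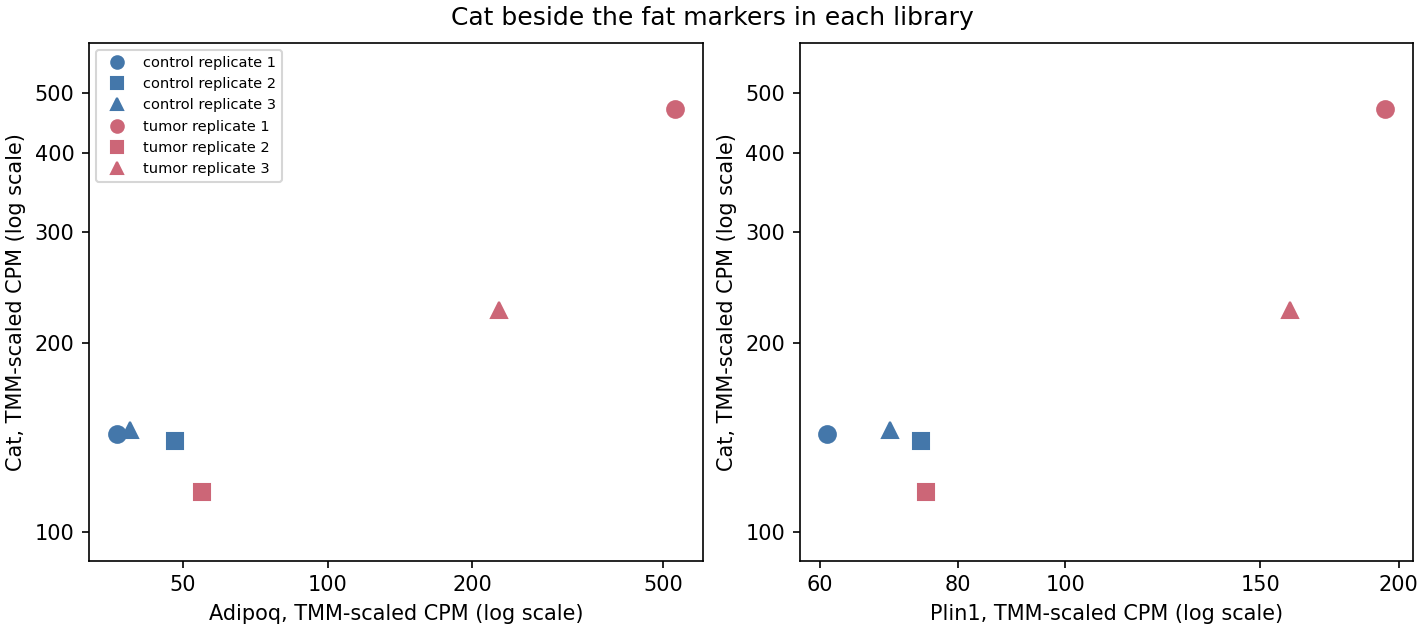
Cat against Adipoq (left) and Plin1 (right) in TMM-scaled CPM for each library, both axes logarithmic, with controls in blue, tumor in red and a symbol for each replicate. Tumor replicates 1 and 3 lie high on both axes, and tumor replicate 2 lies beside the controls on the marker axis and below them on the Cat axis.

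Neither marker passed edgeR's test, with log2 fold changes of 2.72 ± 0.78 (SE) for Adipoq and 1.07 ± 0.34 for Plin1 and edgeR adjusted p of 0.0821 and 0.102. Both passed with DESeq2, at adjusted p of 0.00975 and 0.00715. Of the 11 adipocyte markers none passed edgeR's test, where 7.71% of all genes tested passed. All 11 had a positive log2 fold change and their median was 2.63. Brown fat markers were mixed, and of 4 tested none passed edgeR's test. In tumor 1 was higher and 3 were lower, at a median log2 fold change of -0.55. Cox7a1 and Dio2 were among the lower ones, with log2 fold changes of -0.68 and -0.52. The brown fat markers summed to 27.7 to 37.8 CPM in control and 44.6, 21.6 and 20.9 CPM in tumor replicates 1, 2 and 3. Cox8b and Elovl3 lie outside the naming rules given below. Cox8b, a respiratory subunit of brown fat, measured 8.99, 0.799 and 4.03 CPM in the tumor replicates and at most 0.973 CPM in control, and Elovl3, a fatty acid elongase that was too low to test, had 4.78, 0.107 and 2.40 CPM and at most 0.162 CPM in control, both in the order of Cat. Ucp1, the uncoupling protein that defines brown fat, had at most 1 count in any library. Erythroid markers, since red cells also carry catalase, summed to 214.7 to 312.0 CPM in control and 535.5, 120.5 and 260.4 CPM in tumor replicates 1, 2 and 3, with Hbb-bs, an adult globin gene, at a rounded count of 0 in all 6 libraries and Hbb-bt not a row of the table.

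The size of the Cat difference depended on which tumor libraries were in the fit. Without tumor replicate 1 its log2 fold change was 0.26 ± 0.27 (SE), and without tumor replicate 2 it was 1.28 ± 0.30, with edgeR adjusted p of 0.504 and 0.107. With the mean of the 11 adipocyte markers as a covariate it turned to -0.53 ± 0.23 (SE), with an adjusted p of 0.317. That covariate, a mean log2 CPM, was 5.84 to 6.25 in the controls and 9.05, 6.28 and 8.14 in tumor replicates 1, 2 and 3, so 1 tumor library lay near the controls. In the plot of Cat against the fat markers the same 2 tumor libraries are high. No adipocyte marker was at 0 in any library. The part of fat tissue or of red cells in the Cat values was not tested.

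Summed levels of other genes of the peroxisome, where catalase works, were ordered like Cat among the tumor libraries over a narrower range. Of 22 genes of peroxisome assembly and membrane transport, none passed edgeR's test, where 7.71% of all genes tested passed. Their median log2 fold change was -0.06. Their summed level was 954.0 to 1062.9 CPM in control and 1093.2, 919.1 and 1037.2 CPM in tumor replicates 1, 2 and 3. Pex5, the receptor that imports catalase, measured 88.9 ± 9.59 CPM in control against 70.1 ± 5.02 CPM in tumor (SD, n = 3 each), and Pex14, its docking partner, had a log2 fold change of -0.37. Pex19, the chaperone of peroxisomal membrane proteins, measured 176.9 ± 16.3 and 172.7 ± 12.2 CPM. Abcd2, a peroxisomal fatty acid transporter, and Pxmp2, a peroxisomal membrane channel, were picked after their values were seen, as the 2 highest of the list, with log2 fold changes of 1.35 and 1.31 that did not pass. Abcd2 measured 100.4, 39.7 and 54.2 CPM in tumor replicates 1, 2 and 3 and 22.97 to 28.3 CPM in the controls. Pxmp2 measured 11.5, 3.25 and 6.65 CPM in the tumor replicates and 2.46 to 3.40 CPM in the controls. Both had their highest value in tumor replicate 1 and their lowest tumor value in tumor replicate 2.

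Of 25 tested genes of peroxisomal fatty acid and amino acid oxidation, none passed edgeR's test, where 7.71% of all genes tested passed. Their median log2 fold change was -0.02. Their sum was 1770 CPM in tumor replicate 1, above all controls, 1286 in tumor replicate 2, below all controls, and 1538 in tumor replicate 3, against 1539 to 1600 in control. Ehhadh, a bifunctional enzyme of peroxisomal fatty acid oxidation, measured 34.3, 9.06 and 16.03 CPM in the tumor replicates and 6.30 to 8.49 CPM in control. Its log2 fold change was 1.41 ± 0.48 (SE; edgeR adjusted p 0.112, DESeq2 adjusted p 0.0172). It was highest in tumor replicate 1 and lowest in tumor replicate 2 among the tumor libraries, as Cat was. With the adipocyte covariate its log2 fold change was 0.06. Hsd17b4, of the same pathway, measured 122.0 ± 3.12 CPM in control and 112.5 ± 7.19 CPM in tumor.

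Sod2 (chromosome 17, 13007839 to 13020124, plus strand), whose enzyme handles the superoxide of the respiratory chain, had nearly equal means in both groups. It measured 95.7, 99.8 and 89.0 CPM in control replicates 1, 2 and 3 and 91.8, 88.6 and 103.4 CPM in tumor replicates 1, 2 and 3. The log2 fold change was -0.0038 ± 0.094 (SE), and its 95% interval of -0.23 to 0.22 is the range of differences these libraries allow. Tumor replicate 3 was the highest and tumor replicate 2 the lowest of all 6, so the tumor values span the control values. Of 5 tested genes in a list drawn up for manganese handling and SOD2 deacetylation, none passed edgeR's test, where 7.71% of all genes passed. Slc39a14, a manganese importer, had 0.08 on the log2 scale, which was -0.07 after the length correction, and Sirt3, the mitochondrial deacetylase of the Sod2 enzyme, had 0.12. Slc25a39, a carrier of the mitochondrial inner membrane, measured 253.0 ± 39.4 CPM in control and 171.8 ± 23.3 CPM in tumor (SD, n = 3 each; edgeR adjusted p 0.0740, DESeq2 adjusted p 0.0114). Its log2 fold change was -0.56, and -0.36 after the length correction (edgeR adjusted p 0.146). These data do not show what it carries, and its value is not a measure of manganese supply.

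Sod1 and its chaperone Ccs (chromosome 19, 4825366 to 4839322, minus strand) both averaged lower in tumor without passing the test. Sod1 measured 518.4, 382.3 and 502.6 CPM in control replicates 1, 2 and 3 and 385.6, 350.4 and 403.4 CPM in tumor replicates 1, 2 and 3. Ccs measured 70.0, 47.1 and 61.0 CPM in the controls and 33.4, 44.0 and 48.2 CPM in the tumor replicates. In both genes the groups overlapped through control replicate 2, which lay below tumor replicate 3. The same library was the lowest control for Sod3 and the highest for Sod2. The log2 fold change was -0.30 ± 0.14 (SE) for Sod1, with a 95% interval of -0.64 to 0.04, and -0.50 ± 0.19 for Ccs, with one of -0.97 to -0.04; the edgeR adjusted p were 0.205 and 0.138. In the authors' deposited table they have log2 fold changes of -0.29 and -0.49, with q of 0.199 and 0.118.

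Sod1 and Ccs have the shortest transcripts of the 5, and their differences were smaller after a correction for gene length. The effective length behind the deposited FPKM was 588 bases for Sod1, 1008 for Ccs, 1996 for Sod3, 2502 for Cat and 3775 for Sod2. After the length correction the log2 fold change was 0.06 ± 0.10 (SE) for Sod1 and -0.23 ± 0.15 for Ccs, while Sod3 had -0.94 ± 0.13 with an edgeR adjusted p of 0.0398 and Cat had 0.97 ± 0.48. This correction used a symmetric loess, and the Sod3 call depended on its form: the adjusted p was 0.0413 with medians in 20 length bins, 0.0862 with a least-squares loess and 0.0753 with a straight line. The other values given after the length correction are those of the symmetric loess.

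**Figure D4:**
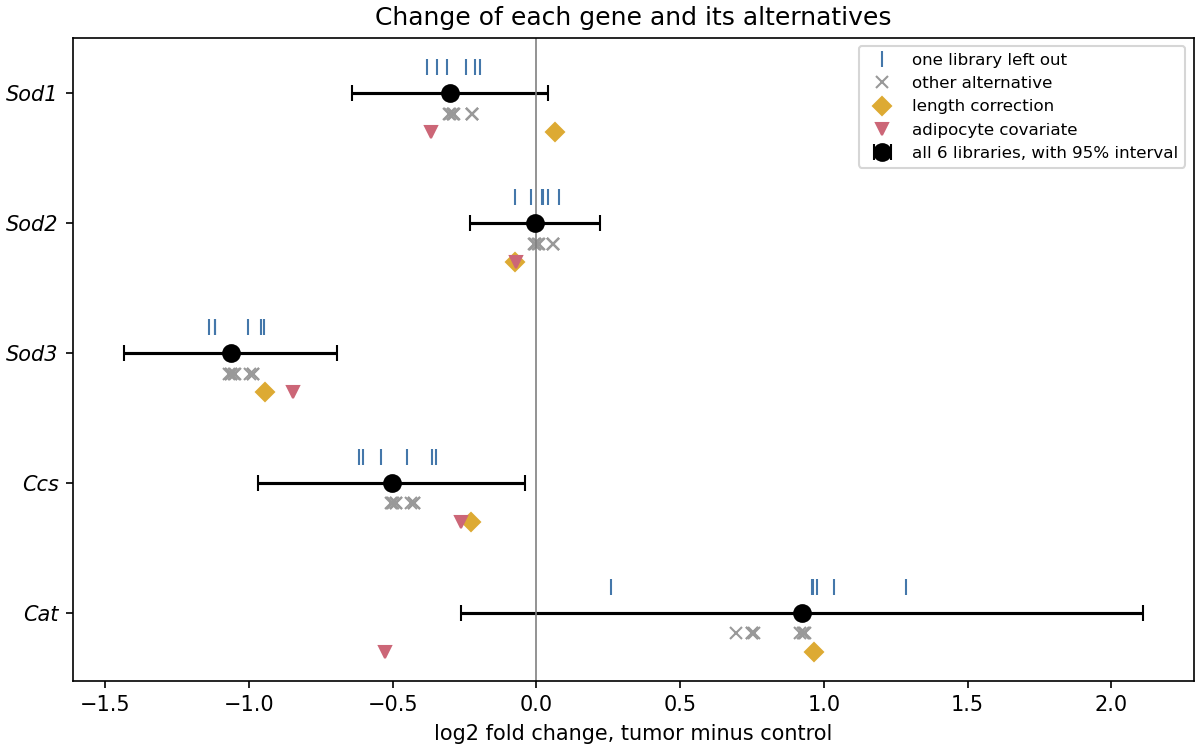
Log2 fold change of tumor against control for each gene, with black points and 95% intervals for edgeR on all 6 libraries, blue marks with a library left out, grey crosses for other alternatives, yellow diamonds for the length correction by symmetric loess and red triangles for the adipocyte covariate. Sod3 stays below -0.8 throughout, the marks of Sod2 lie on both sides of 0, and the sign changes for Sod1 with the length correction and for Cat with the covariate.

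Ratios of TPM within a library compare the members with each other free of library scaling. The Sod1 to Sod3 ratio was 6.52 ± 0.19 in control and 11.2 ± 1.87 in tumor (SD, n = 3 each), and the Sod2 to Sod3 ratio was 0.210 ± 0.044 and 0.434 ± 0.058. The Sod3 to Ccs ratio was 2.08 ± 0.094 in control and 1.41 ± 0.096 in tumor, so Sod3 was lower relative to its copper-zinc relatives and to Sod2 in every tumor library. In 4 of the 10 pairs the groups did not overlap, all of them with Sod3, and each of these had an exact two-sided permutation p of 0.1, the smallest that 3 libraries against 3 allow, which is 0.25 after adjustment over the 10 pairs. They are all the pairs that hold Sod3 and share its values, so they are not separate results. Among single genes tested, 38.1% did not overlap, and the share over other gene pairs was not computed. The Sod1 to Ccs ratio, enzyme to chaperone, was 13.6 ± 0.77 in control and 15.9 ± 3.36 in tumor, with an exact permutation p of 0.4. Its log2 values were 3.67, 3.798 and 3.82 in the controls and 4.31, 3.77 and 3.84 in tumor replicates 1, 2 and 3, and tumor replicate 1 alone lay apart.

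Copper is the cofactor that Ccs delivers, and among 12 genes of copper handling 4 fell, 0 rose and 8 missed the threshold, at a median log2 fold change of -0.52. Over all genes tested 3.91% fell, and the list was chosen with earlier results of these data known. Atox1, which carries copper to the secretory pathway and so to enzymes such as extracellular superoxide dismutase, fell, with 55.8 ± 4.79 CPM in control against 32.97 ± 1.88 CPM in tumor (SD, n = 3 each). Its log2 fold change was -0.76 ± 0.10 (SE; edgeR adjusted p 0.0301). The metallothionein genes Mt1 and Mt2, whose products bind zinc and copper, fell from 508.2 ± 148.0 to 232.1 ± 21.9 CPM and from 201.7 ± 63.5 to 74.6 ± 18.6 CPM (edgeR adjusted p 0.0406 and 0.0436). Slc31a1, the copper importer, measured 87.4 ± 1.80 and 79.1 ± 7.01 CPM, and Atp7a, the copper pump of the secretory pathway, stood at 0.45 on the log2 scale (edgeR adjusted p 0.0711, DESeq2 adjusted p 0.0256). Atp7a has an effective length of 8153 bases and stood at 0.16 after the length correction (edgeR adjusted p 0.418). The effective lengths of Atox1, Mt1 and Mt2 are 465, 496 and 507 bases. After the length correction 0 of the 12 fell, and Atox1 had -0.37 ± 0.08 (SE), Mt1 -0.73 ± 0.15 and Mt2 -1.03 ± 0.23, with edgeR adjusted p of 0.0669, 0.0626 and 0.0730. Of all 15787 genes tested, 210 fell with that correction and 617 without it, so calls became fewer in general.

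Other peroxide-removing systems were represented by 20 genes, of which 5 fell, 0 rose and 15 missed the threshold, at a median log2 fold change of -0.29. Among all genes tested 3.91% fell, and this list too was chosen with earlier results known. Gpx1, the glutathione peroxidase of the cytosol and mitochondria, fell, with 329.3 ± 59.6 CPM in control against 153.6 ± 10.97 CPM in tumor (SD, n = 3 each; edgeR adjusted p 0.0318). Gpx3, the secreted glutathione peroxidase, fell from 1132 ± 159.5 to 430.6 ± 103.1 CPM, and Srxn1, which repairs oxidized peroxiredoxins, fell from 51.3 ± 6.10 to 21.6 ± 6.45 CPM, with edgeR adjusted p of 0.0343 and 0.0385. Prdx1 measured 474.7 ± 9.58 and 377.8 ± 37.8 CPM, which did not pass edgeR's test and passed with DESeq2 (adjusted p 0.0902 and 0.0257). Its log2 fold change was -0.33, and -0.13 after the length correction (edgeR adjusted p 0.503). Gpx4, which reduces lipid peroxides, had a log2 fold change of -0.19, which was 0.14 after the length correction. With that correction 2 of the 20 fell, Gpx1 and Gpx3, where 210 of all 15787 genes tested fell, against 617 without it.

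On the side of superoxide production, none of 11 tested oxidase genes passed edgeR's test, where 7.71% of all genes tested passed. The median log2 fold change of the 11 was -0.01. Cybb, the catalytic subunit of the phagocyte NADPH oxidase, measured 11.8 ± 2.54 CPM in control against 19.7 ± 6.26 CPM in tumor, and its partner Cyba measured 45.9 ± 5.90 and 36.1 ± 6.52 CPM. Nox4, an oxidase that releases hydrogen peroxide, measured 3.8035 ± 0.803 and 3.77 ± 0.31 CPM. Macrophage markers, of which 0 of 9 passed, summed to 469.1 to 713.8 CPM in control and 405.8 to 596.9 CPM in tumor.

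Transcription factors and cofactors that are known to act on these genes made up a list of 18, of which 4 rose, 1 fell and 13 missed the threshold, at a median log2 fold change of 0.30. The shares over all genes tested were 3.8% risen and 3.91% fallen, and this list was also chosen with earlier results known. Foxo3 and Foxo1, which can activate Sod2 and Cat, rose by 0.55 ± 0.09 and 0.95 ± 0.21 (SE) on the log2 scale (edgeR adjusted p 0.0374 and 0.0480). Sirt1, a deacetylase of FOXO proteins, rose, with 30.2 ± 1.54 CPM in control against 46.2 ± 1.17 CPM in tumor (SD, n = 3 each), and Cebpb, a factor of the inflammatory and luteinizing hormone response, fell from 133.3 ± 4.79 to 67.9 ± 5.41 CPM (edgeR adjusted p 0.0318 and 0.0206). Nfe2l2, the gene of the antioxidant regulator NRF2, measured 173.2 ± 9.33 and 165.9 ± 11.96 CPM. After the length correction 1 of the 18 rose, Sirt1, and 1 fell, Cebpb, and Foxo3 and Foxo1 had adjusted p of 0.126 and 0.0857. In that fit 155 of all 15787 genes tested rose and 210 fell, against 600 and 617 without the correction.

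**Figure D5:**
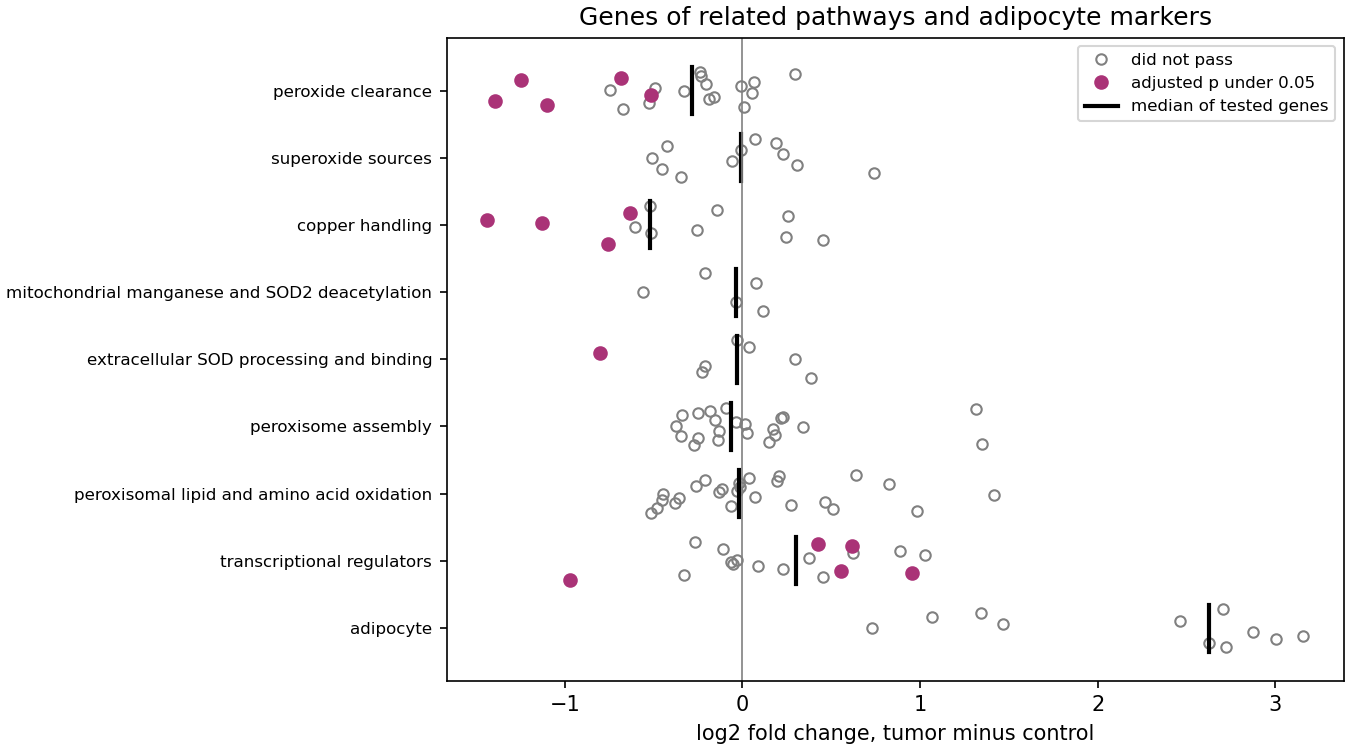
Log2 fold change of tumor against control for the tested genes of each related pathway and for adipocyte markers, with filled points at an edgeR adjusted p under 0.05 and a black bar at each median. Falls that passed lie in peroxide clearance and copper handling, with 1 each among extracellular binding partners and regulators, and no adipocyte marker passed although all 11 lie to the right of 0. Over all genes tested 3.91% fell and 3.8% rose.

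The genes whose pattern over the 6 libraries was most like each member, by Pearson's r of log2 CPM among 11926 other genes, are given as a description. For Sod3 they were Kctd13, Itga5, Ciao2b and Bloc1s3, with r from 0.998 to 0.9995. Itga5, an integrin subunit that binds fibronectin, measured 158.9, 117.1 and 153.6 CPM in the controls and 57.1, 72.1 and 71.4 CPM in tumor. For Cat they were Abhd5, an activator of fat droplet lipolysis, Gstz1, Gsta3 and Ncoa4, with r from 0.995 to 0.998. Abhd5 measured 93.8, 26.2 and 48.6 CPM in tumor replicates 1, 2 and 3 and 29.6 to 32.8 CPM in control. For Ccs they were Slc35b2, Atp5d, Kdelr3 and Bnip1, with r of at least 0.997, for Sod1 Malsu1, Prxl2b, Cdc123 and Sspo, with r of at least 0.988, and for Sod2 Bet1, Msra and Rasgrp2, with r of 0.912 to 0.945. The 6 libraries form 2 groups, so a gene with a like group difference, or a like value in tumor replicate 1, scores high on this measure.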

How the data were processed

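The data are 6 RNA-seq libraries of mouse ovary, single-end reads of 50 bases per the labels' protocols. HISAT2 2.0.4, Bowtie2 2.2.5, RSEM 1.2.12 and GRCm38.p6 are named in the submitters' processing notes, with no role stated. The authors deposited estimated counts, FPKM and TPM per gene and per transcript, per the file headers, and log2 fold changes with p-values and q-values of their own DESeq2 comparison. A further 24 columns of per-sample values were not used.

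Estimated counts were rounded to whole numbers. With edgeR 4.0.16 in R 4.3.3, genes were kept by filterByExpr, scaled by TMM and tested with the quasi-likelihood F test (robust, group only) over 15787 genes, with Benjamini-Hochberg adjustment at 0.05. The SE is the absolute log2 fold change divided by the square root of F. FPKM entered limma 3.58.1 as log2(FPKM + 1) or log2(FPKM + 0.1), and DESeq2 1.42.0 was an alternative. The length correction took a symmetric loess of each library's log2 CPM deviations on log2 effective length as offsets. On data simulated from this comparison (15633 genes), the test recovered 83% of 100 genes simulated at a fold of 4 and 39% of 100 simulated at a fold of 2, and 8.27% of its calls were false, above the 5% aimed at.

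The members and gene lists were chosen with earlier results of these data known. Beside the members, Adipoq and Plin1, the text names the first 3 genes of each pathway list and up to 2 more that passed with the smallest p, and up to 4 most alike genes per member; a few items that these rules name are not reported here. No 2 libraries agreed within sampling noise (chi-square per degree of freedom of at least 12.6). The labels do not say whether the replicate numbers pair the samples, and the main fit did not use them.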

Additional observations from a re-analysis of the deposited data

How the results depend on the processing

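Over 19 alternatives to edgeR on all 6 libraries, Sod3 stayed lower in tumor in all 19 and kept its call in 11, and Ccs kept its direction and stayed above the threshold in all 19. Of these, 3 forms of the length correction were chosen after seeing the data: Sod3 had -0.87 with a least-squares loess and -0.91 with a straight line, both without its call, and kept it with medians in 20 length bins. Sod3 had -1.06 with an adjusted p of 0.0939 with the replicate number as a block, a fit in which no gene passed, and -0.85 with the adipocyte covariate; with each library left out it ranged from -1.14 to -0.95. The labels share replicate numbers without saying that they pair the samples. Same-numbered control and tumor libraries had correlations of their deviations of 0.24, -0.21 and 0.53. Control replicates 1 and 3 and tumor replicate 3 correlated best with their own number and the other 3 libraries did not. These values do not settle whether the samples were paired. Sod1 was 0.065 after the length correction, 0.097, 0.054 and 0.15 with least squares, bins and a line, and -0.38 to -0.20 with a library left out. Sod2, near 0, was 0.0095 with RLE size factors, 0.0069 with DESeq2, 0.057 on log2(FPKM + 1) with or without the filter and 0.059 on log2(FPKM + 0.1), and -0.073 to 0.079 with a library left out. Cat was -0.53 with the covariate and 0.26 to 1.28 with a library left out. The cause of these changes was not tested.

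Among other named genes the sign turned for Gpx4 (0.14), Slc39a14 (-0.070) and Lrp1 (-0.15) after the length correction, for Slc39a14 (-0.035) and Pex19 (0.049) with the covariate, and on the FPKM scale for Pex19 (0.033 with a pseudocount of 1, 0.034 with 0.1), Nfe2l2 (0.0010 on each) and Nox4 (0.031 with a pseudocount of 1, 0.060 with 0.1). Nox4 also turned to 0.0045 with RLE, 0.0016 with DESeq2 and 0.0051 with the replicate block. With a library left out, Nox4 ranged from -0.082 to 0.19, Pex19 from -0.082 to 0.0345 and Nfe2l2 from -0.10 to 0.029. The number of genes that passed was 1217, and it was 3029 with DESeq2, 365 after the length correction (125, 346 and 139 with least squares, bins and a line), 778 on log2(FPKM + 1) without a filter, 0 with the replicate block (4233 at an unadjusted p under 0.05) and 0 with the covariate (2591 at an unadjusted p under 0.05). With a library left out it ranged from 0 to 2605, with 0 without control replicate 1 and without tumor replicate 3 (3137 and 3761 at an unadjusted p under 0.05), 5 without control replicate 3 and 3 without tumor replicate 2. With DESeq2, Adipoq, Plin1, Prdx1, Atp7a, Slc25a39 and Ehhadh also passed. The covariate was not run for Adipoq and Plin1, which are part of it. The 10 member ratios kept their sign in the 8 alternatives run for each. Of these alternatives, FPKM gives the same ratio as TPM within a library, and a pseudocount of 1 is small beside these levels. Only the left-out libraries could thus have turned a sign. Transcript shares were 100% by counts and by TPM, which a single transcript per gene fixes in advance.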
